A study of Mus musculus with 8 samples.

Results

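Tek encodes the angiopoietin receptor TIE2, Angpt1 and Angpt2 encode its ligands, and Erg, Fli1, Ets1 and Ets2 encode transcription factors of the ETS family. These 7 genes, of 31276 in the deposited table, were read in all 8 libraries. They were chosen by symbol with their deposited log2 values in all 8 libraries already known, so their levels and differences are given as a description with no test.

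The cells were C3H10T1/2, a multipotent mesenchymal line from mouse embryos, used between passages 10 and 15, and their RNA was sequenced and counted per gene. Every line stably expressed a FLAG-HA-tagged histone H3 transgene, and the labels name no change to the cells' own histone genes. The transgenes were H3.3 K36M, H3.1 K36M, H3.3 K36I, H3.3 K36A, H3.3 K36L, H3.3 K36R, H3.1 K36R and wild-type H3.3 (H3.3 WT), with 1 library each. K36M stands for methionine in place of the lysine at position 36, and A, I, L and R stand for alanine, isoleucine, leucine and arginine in the same place. K36M and K36I are described in the literature as inhibitors of H3K36 methyltransferases, so these 3 lines are set against the other 5 as classes, and n counts lines that carry different transgenes. Nothing in the labels says that a line was made or cultured more than once, so each spread and each p-value reflects only differences between these lines, which may be partly technical.

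In vessels, TIE2 is a receptor tyrosine kinase of endothelial cells. ANGPT1, made mainly by mural and mesenchymal cells, activates it, and ANGPT2, released by activated endothelium, blocks or activates it depending on context. ETS factors bind DNA around a GGAA core. ERG and FLI1 are close relatives known from endothelial and blood cells, and ETS1 and ETS2 are another closely related pair, found in many tissues and phosphorylated by the ERK kinases.

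The RefSeq promoter windows that could be matched are shown first. Tek and Erg were low in the same lines while Ets2 was not, and any part of these windows in that was not tested. The counts are per gene and do not show which Erg start was used. RefSeq windows on GRCm38.p6, from 250 bases before to 50 bases after the start, were matched by symbol for 3 of the 7 genes, Tek (1 window), Erg (3 windows) and Ets2 (1 window). Capitals mark GGAA, the ETS core, or its reverse complement TTCC. The windows are chr4:94739039-94739338 (plus strand) for Tek, chr16:95586544-95586843 (minus strand) for the outermost Erg start and chr16:95702157-95702456 (plus strand) for Ets2.
The Ets2 window lies inside the gene as GENCODE M21 annotates it and holds no GENCODE transcript start, so it need not be that gene's proximal promoter.
Tek: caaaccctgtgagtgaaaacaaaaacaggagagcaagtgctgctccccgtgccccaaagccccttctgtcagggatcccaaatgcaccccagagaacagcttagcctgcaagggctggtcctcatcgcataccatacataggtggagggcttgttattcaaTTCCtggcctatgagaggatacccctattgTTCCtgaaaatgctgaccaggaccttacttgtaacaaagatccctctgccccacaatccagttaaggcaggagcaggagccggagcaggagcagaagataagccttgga
Erg: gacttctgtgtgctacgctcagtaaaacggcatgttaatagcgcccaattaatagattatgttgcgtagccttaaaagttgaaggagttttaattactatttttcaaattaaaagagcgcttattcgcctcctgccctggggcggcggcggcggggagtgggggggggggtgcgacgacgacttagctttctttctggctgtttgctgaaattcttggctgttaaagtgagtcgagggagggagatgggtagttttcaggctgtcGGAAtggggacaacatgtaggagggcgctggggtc
Ets2: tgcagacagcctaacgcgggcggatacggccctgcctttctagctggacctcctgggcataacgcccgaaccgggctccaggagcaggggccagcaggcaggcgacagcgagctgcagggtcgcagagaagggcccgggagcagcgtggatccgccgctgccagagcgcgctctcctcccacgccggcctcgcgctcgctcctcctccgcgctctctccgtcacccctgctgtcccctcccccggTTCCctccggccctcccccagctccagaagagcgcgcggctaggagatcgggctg
The Tek window holds 2 matches, the outermost Erg window 1 and the Ets2 window 1, while the other Erg windows hold 4 and 2. At least 1 match was found in 96.0% of all 32851 promoter windows, with a median of 3 matches. The longer motif CGGAAG, or CTTCCG on the other strand, occurs in 16.9% of all windows and in none of these 5. Each CGGAAG match also contains a GGAA match. The GC content is 52.0% in the Tek window, 50.3% in this Erg window and 71.7% in the Ets2 window.

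The libraries held 45448249 to 68020958 recovered reads, with the H3.1 libraries the shallowest. Levels are given as normalised reads, in which each library's reads are scaled by its size factor, and differences on the deposited log2 scale, where 5.95 stands for 0 reads. That scale compresses differences of genes with few reads. All 7 genes passed the filter on low values, a mean at least 1 above the lowest value, as did 14215 genes in all. Erg, with a mean 1.66 above the lowest value, passed only through the 5 other lines. Its mean log2 value was 8.54 there and 6.07 in the K36M and K36I lines. A stricter filter, at least 2 above the lowest value, would leave Erg out. The line was mesenchymal by its defining markers: Col1a1 averaged 40578 normalised reads in the K36M and K36I lines and 47494 in the others, and Col1a2 152050 and 243742. Intervals in the text are 95% exact Poisson intervals of counts above 0, and they cover counting error only.

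**Figure D1:**
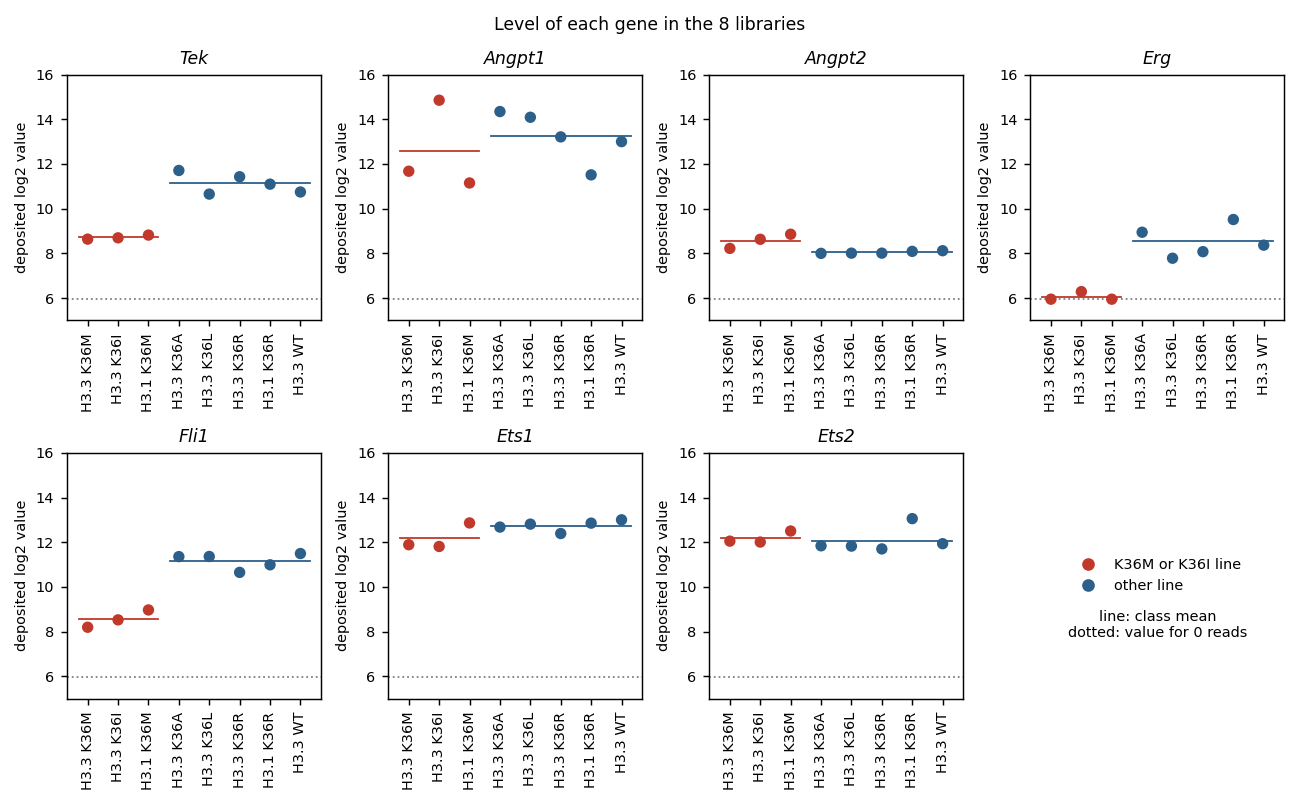
Deposited log2 value (y axis) of each of the 7 genes in each library (x axis), with red points for K36M or K36I lines, blue points for the other lines, horizontal lines for class means and a dotted line for 0 reads. Tek, Erg and Fli1 lie lower in all 3 red points than in any blue point, and Angpt2 slightly higher.

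Tek, Erg and Fli1 were low in all 3 K36M and K36I lines, and Angpt2 was modestly higher there. K36M was carried by H3.3 or by H3.1, with 1 library each, and K36I by H3.3 only. Ets1 was low only in the H3.3 lines with these substitutions, Angpt1 ranged widely without following the classes, and Ets2 was highest in the H3.1 lines. The classes did not overlap for 4 of the 7 genes, namely Tek, Erg and Fli1 on the low side and Angpt2 on the high side. Of these, Erg passed the filter only through its values in the other lines. Of all genes tested, 21.5% had no overlap, 11.5% on the low side and 10.0% on the high side. In bulk RNA, fewer cells expressing a gene and less RNA per cell cannot be told apart.

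Tek (ENSMUSG00000006386, chromosome 4, 94739289 to 94874976, plus strand, GRCm38) is the receptor of the pathway. It had 284 normalised reads in H3.3 K36M, 300.3 in H3.3 K36I and 336 in H3.1 K36M, against 3228 in H3.3 K36A, 1489 in H3.3 K36L, 2634 in H3.3 K36R, 2068 in H3.1 K36R and 1597 in H3.3 WT. The 3 low lines lay close together, with overlapping counting intervals (253 to 319, 269.8 to 333 and 297 to 380.3), and far below the lowest of the others. The mean was 307 ± 26.7 normalised reads in the K36M and K36I lines and 2203 ± 730.1 in the others (SD, n = 3 and 5), 7.17-fold lower as a ratio of these means. The difference of the mean deposited log2 values was -2.41. Among the other lines H3.3 K36A stood 2.17-fold above H3.3 K36L, a difference of 1.06, while 0.345% of genes tested were higher there by at least 1.

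Erg (ENSMUSG00000040732, chromosome 16, 95359169 to 95586593, minus strand) had no read in H3.3 K36M or H3.1 K36M and 4 reads in H3.3 K36I. In normalised reads, H3.3 K36I had 3.40 (interval 0.927 to 8.71), against 377 in H3.3 K36A, 114 in H3.3 K36L, 160.5 in H3.3 K36R, 613 in H3.1 K36R and 218 in H3.3 WT. A count of 0 allows up to 3 reads, or 2.86 normalised reads in H3.3 K36M and 3.94 in H3.1 K36M. Against this limit of 3 reads per library, and with the counting error of the K36R libraries left aside, Erg was at least 56.1-fold lower in H3.3 K36M than in H3.3 K36R, and at least 156-fold lower in H3.1 K36M than in H3.1 K36R. The class difference of -2.47 on the deposited scale is bounded by the value for 0 reads. The lines with Erg varied among themselves, with H3.1 K36R 1.73 above H3.3 K36L on the log2 scale.

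Fli1 (ENSMUSG00000016087, chromosome 9, 32422204 to 32542861, minus strand) had 183 normalised reads in H3.3 K36M, 256 in H3.3 K36I and 386 in H3.1 K36M. The other lines had 2503 in H3.3 K36A, 2514 in H3.3 K36L, 1489 in H3.3 K36R, 1916 in H3.1 K36R and 2766 in H3.3 WT. Among the low lines, H3.1 K36M was 2.11-fold above H3.3 K36M with no overlap of their counting intervals (343 to 433 and 158 to 211). The mean was 275 ± 103 normalised reads in the K36M and K36I lines and 2237 ± 522 in the others (SD, n = 3 and 5), 8.13-fold lower as a ratio of these means. The difference of the mean deposited log2 values was -2.61. Per kilobase of merged GENCODE M21 exon, Fli1 stood at 52.6 normalised reads in H3.3 K36M and 793 in H3.3 WT, Tek at 60.4 and 339, and Erg at 0 and 63.0.

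**Figure D2:**
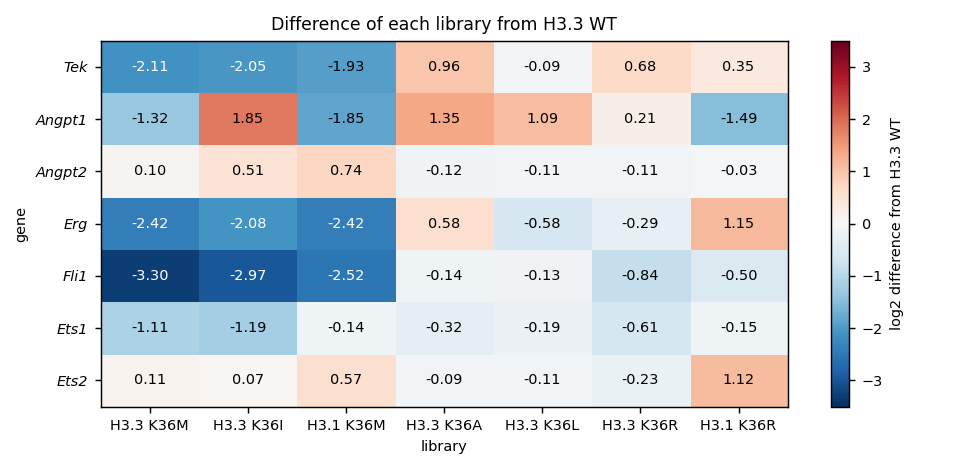
Difference of each library from H3.3 WT in log2 on the deposited scale (colour and number) for each gene (rows) and library (columns). Tek, Erg and Fli1 are at -1.93 or lower in H3.3 K36M, H3.1 K36M and H3.3 K36I, and Angpt1 is red in H3.3 K36I (1.85) and blue in H3.3 K36M (-1.32).

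Against H3.3 WT, Tek, Erg and Fli1 were lower by at least 1 in each of the 3 lines. Genes lower by at least 1 than in H3.3 WT made up 4.41% of those tested in H3.3 K36M, 4.17% in H3.3 K36I and 4.23% in H3.1 K36M. In the other mutants, none of the 3 was lower by 1, against 1.32% of genes tested in H3.3 K36A, 0.507% in H3.3 K36L, 0.696% in H3.3 K36R and 1.25% in H3.1 K36R. Tek was 0.96 above H3.3 WT in H3.3 K36A and 0.68 above it in H3.3 K36R, and Fli1 was 0.84 below it in H3.3 K36R. Erg was 1.15 and Ets2 1.12 above H3.3 WT in H3.1 K36R, where 2.08% of genes were higher by at least 1. Ets1 was lower by at least 1 in H3.3 K36M (-1.11) and H3.3 K36I (-1.19). Angpt1 was higher by at least 1 in H3.3 K36I (1.85), H3.3 K36A (1.35) and H3.3 K36L (1.09), where 3.45%, 0.760% and 0.521% of genes were, and lower in H3.3 K36M (-1.32), H3.1 K36M (-1.85) and H3.1 K36R (-1.49). In either direction, the shares of genes past 1 were 8.69% in H3.3 K36M, 7.63% in H3.3 K36I, 10.3% in H3.1 K36M, 2.08% in H3.3 K36A, 1.03% in H3.3 K36L, 1.76% in H3.3 K36R and 3.33% in H3.1 K36R. These comparisons share the H3.3 WT library, so their values are set side by side only.

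The contrast of K36M with K36R can be read once in each histone. Tek differed by -2.79 in H3.3 and -2.28 in H3.1, Erg by -2.12 and -3.56, and Fli1 by -2.45 and -2.02. Genes lower by at least 1 made up 4.45% in H3.3 and 3.12% in H3.1. These 3 genes were thus low in K36M in both histones, with 1 library behind each value.

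Angpt2 (ENSMUSG00000031465, chromosome 8, 18690263 to 18741562, minus strand), the context-dependent ligand, lies within the gene Mcph1 on the other strand but shares no annotated exon with it. It had 188 normalised reads in H3.3 K36M, 282 in H3.3 K36I and 348 in H3.1 K36M, against 148 in H3.3 K36A, 149 in H3.3 K36L, 149 in H3.3 K36R, 163 in H3.1 K36R and 168 in H3.3 WT. The other 5 lines lay within a narrow band. The counting interval of H3.3 K36M (163 to 216) overlapped that of H3.3 WT (145 to 195), so the gap between the classes there was within counting error. The mean was 273 ± 80.6 normalised reads in the K36M and K36I lines and 155 ± 9.53 in the others (SD, n = 3 and 5), 1.76-fold higher as a ratio of these means, and the mean deposited log2 values differed by 0.52.

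Angpt1 (ENSMUSG00000022309, chromosome 15, 42424723 to 42676977, minus strand), the activating ligand, ranged 13.7-fold over the 8 libraries. It had 3148 normalised reads in H3.3 K36M, 29432 in H3.3 K36I and 2150.2 in H3.1 K36M. The other lines had 20688 in H3.3 K36A, 17307 in H3.3 K36L, 9357 in H3.3 K36R, 2800.0 in H3.1 K36R and 8063 in H3.3 WT. The highest and the lowest value both fell within the K36M and K36I class, so the classes overlapped, and their means were 11577 ± 15471 and 11643 ± 7248 (SD, n = 3 and 5). H3.3 K36M and H3.3 K36I, whose Tek levels were within counting error of each other, differed 9.35-fold in Angpt1 (-3.18), while 0.577% of genes tested were lower in H3.3 K36M by at least 1. The H3.1 lines were low with either residue, with H3.1 K36R -1.70 from H3.3 K36R, where 1.13% of genes were lower by at least 1. Of the Angpt1 exons, 737 bases overlap the plus-strand gene Gm17473, and with the strand setting of the counting not given, reads of the overlap cannot be told apart.

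The balance of the ligands on a per-length scale differed between lines. Per kilobase of merged exon, Angpt1 had 605 normalised reads and Angpt2 51.0 in H3.3 K36M. In H3.3 K36I the values were 5655 and 76.5, in H3.1 K36M 413 and 94.4, and in H3.3 WT 1549 and 45.6. Angpt1 was the more abundant ligand in all of these lines.

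Ets1 (ENSMUSG00000032035, chromosome 9, 32636221 to 32757820, plus strand) had 3674 normalised reads in H3.3 K36M, 3474 in H3.3 K36I and 7332 in H3.1 K36M. The other lines had 6437 in H3.3 K36A, 7067 in H3.3 K36L, 5250.2 in H3.3 K36R, 7288 in H3.1 K36R and 8093 in H3.3 WT. H3.1 K36M lay among the other lines, so the classes overlapped, with means of 4827 ± 2172 and 6827 ± 1062 (SD, n = 3 and 5). Within the H3.3 lines, both K36M and K36I lay below the other 4, at a mean of 3574 against 6712 ± 1190 (SD, n = 4), a difference of -0.87. Among the H3.3 lines alone, 44.5% of genes tested had no overlap, 23.2% on the low side.

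Ets2 (ENSMUSG00000022895, chromosome 16, 95702075 to 95721051, plus strand) had 4119.9 normalised reads in H3.3 K36M, 4000.1 in H3.3 K36I and 5683 in H3.1 K36M. The other lines had 3549 in H3.3 K36A, 3513 in H3.3 K36L, 3211 in H3.3 K36R, 8401 in H3.1 K36R and 3798 in H3.3 WT. The H3.1 lines held the highest values with either residue. H3.1 K36R was 2.62-fold above H3.3 K36R (1.35), where 1.84% of genes were higher by at least 1, and H3.1 K36M was 1.38-fold above H3.3 K36M (0.45). The class means were 4601 ± 939 in the K36M and K36I lines and 4494 ± 2194 in the others (SD, n = 3 and 5).

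**Figure D3:**
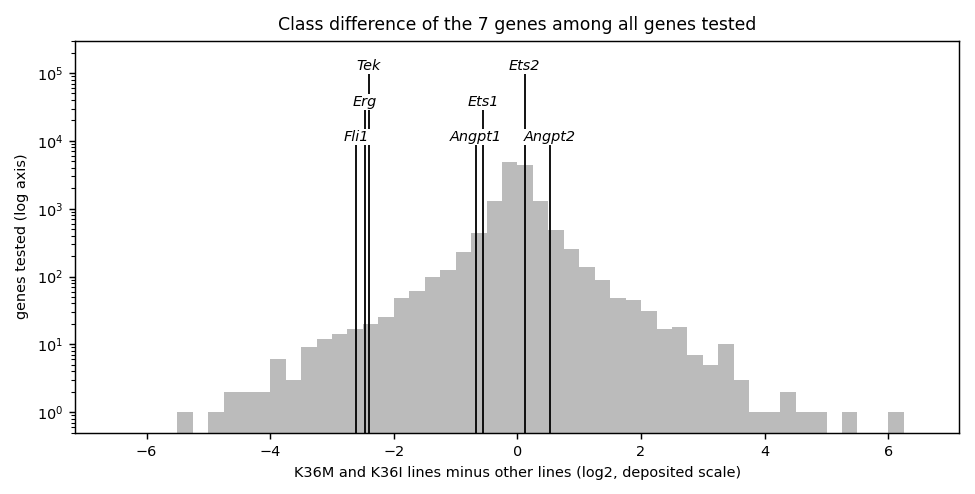
Number of genes tested (y axis, log scale) by the mean of the K36M and K36I lines minus the mean of the other lines (x axis, log2), with the 7 genes marked. Fli1 (-2.61), Erg (-2.47) and Tek (-2.41) lie in the lower tail, and Ets2 (0.11) near the centre.

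The class differences of Fli1, Erg and Tek were at or below -2.41, a range reached by 0.549% of genes tested. Angpt1 (-0.67) and Ets1 (-0.56) lay nearer the bulk, where 6.75% of genes were at or below Ets1. Over the 8 libraries the Pearson correlation was 0.928 between Tek and Erg, 0.921 between Tek and Fli1 and 0.890 between Erg and Fli1. Within the 5 other lines the values were 0.395, -0.415 and -0.0624. Angpt2 ran opposite to Tek over the 8 libraries (-0.806; -0.505 within the 5 other lines), and Angpt1 opposite to Ets2 (-0.677; -0.853). The points share the parental line and differ in transgene. Among the 5 other lines, H3.1 K36R had both the lowest Angpt1 and the highest Ets2 value.

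The ETS genes sit in neighbouring pairs in the genome. Fli1 and Ets1 are 93.4 kb apart on chromosome 9, and Erg and Ets2 are 115 kb apart on chromosome 16, with no annotated protein-coding gene between them in either pair. The class difference was -2.61 for Fli1 and -0.56 for Ets1, and -2.47 for Erg and 0.11 for Ets2. Over the 8 libraries the Pearson correlation was 0.754 between Fli1 and Ets1 and 0.150 between Erg and Ets2, and within the 5 other lines it was 0.778 and 0.806. The 0.806 leans on 1 library, H3.1 K36R, the highest of the 5 for Erg (613 normalised reads) and for Ets2 (8401). The next highest were H3.3 K36A for Erg (377) and H3.3 WT for Ets2 (3798). In the H3.3 lines alone, Fli1 (-2.85) and Ets1 (-0.87) were both lower in K36M and K36I without overlap. Erg (-2.17) was lower and Ets2 (0.20) higher there, also without overlap. In that comparison 44.5% of genes tested had no overlap, 23.2% on the low side.

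**Figure D4:**
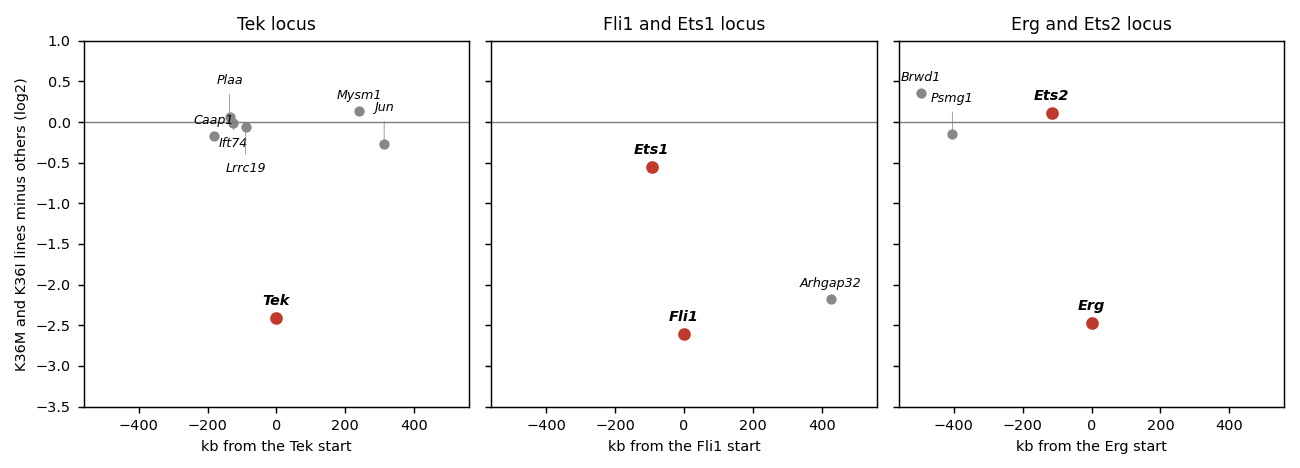
Class difference (y axis, K36M and K36I lines minus others, log2) against distance in kb from the start of Tek, Fli1 or Erg along that gene's strand (x axis), with Tek, Fli1, Ets1, Erg and Ets2 in red and other protein-coding genes past the filter in grey. The genes near Tek lie between -0.27 and 0.14, while Tek lies at -2.41.

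Of the other protein-coding genes with a start within 500 kb of a start of the 7, a window chosen after the members' values were known, 16 passed the filter. In the class comparison (limma, Benjamini-Hochberg adjusted p under 0.05), 1 rose and 2 fell, against 6.45% and 6.82% of all genes tested. Rspo2, a potentiator of WNT signalling 494 kb upstream of Angpt1, fell to 1394 ± 214 normalised reads in the K36M and K36I lines, against 12621 ± 4423 in the others (-3.02, SE 0.26, adjusted p = 3.33e-04). Arhgap32, which encodes a GTPase-activating protein and lies 427 kb downstream of the Fli1 start, fell by 2.18 (SE 0.32, adjusted p = 0.00358). Brwd1, a bromodomain gene beyond Ets2, rose by 0.36 (SE 0.08, adjusted p = 0.0180), and this call was lost without H3.3 K36M or without H3.3 K36I. The 6 genes tested near Tek did not pass, with differences between -0.27 (Jun) and 0.14 (Mysm1).

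Among the 22 other ETS family genes in the list, Erf and Ehf fell and Etv4 rose. In all, 14 passed the filter, with a median difference of -0.01, the same as the -0.01 over all genes tested. The shares over all genes tested were 6.82% that fell and 6.45% that rose. Erf, an ETS repressor, had 2727, 2771 and 2719 normalised reads in H3.3 K36M, H3.1 K36M and H3.3 K36I, against 3868 to 4749 in the other lines. It fell by 0.61 (SE 0.09, adjusted p = 0.00299). Ehf, an ETS factor of epithelia, fell to 4.14 ± 5.60 normalised reads, against 411 ± 331 (SD, n = 3 and 5), a difference of -2.60 (SE 0.43, adjusted p = 0.00607). Under a stricter filter on low values (2 rather than 1 above the lowest) Ehf was not among the genes tested. Etv4, which is induced by FGF and ERK signalling in many tissues, rose to 880.2 ± 212, against 291 ± 94.7, a difference of 1.32 (SE 0.22, adjusted p = 0.00609). These 3 calls held when each library was left out. The other 11 differed by -0.31 to 0.39 and did not pass, and the 8 genes below the filter, Spi1 among them, had at most 64 reads over all libraries. The count in this list depended on the fit. With histone as a covariate, with array weights, in the H3.3 libraries only or without H3.1 K36M, 1 rose and 3 fell.

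**Figure D5:**
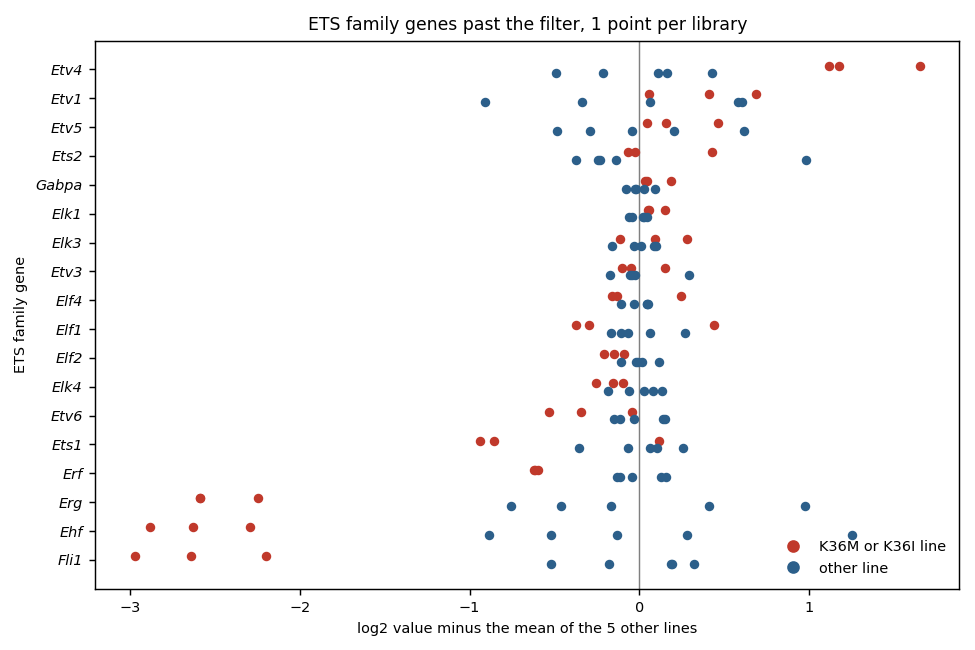
Each library's log2 value minus the mean of the 5 other lines (x axis) for the 18 ETS family genes past the filter (rows), with red points for K36M or K36I lines above blue points for other lines. Fli1, Ehf, Erg and Erf have all red points left of all blue points, and Etv4 and, by a small margin, Elk1 have them to the right, where 21.5% of all genes tested have no overlap in either direction.

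Of 19 TIE2 signalling genes tested, 1 fell and 0 rose, with a median difference of -0.01, where 6.82% of all genes tested fell and 6.45% rose. The count depended on the fit: 4 fell and 1 rose with histone as a covariate, 4 fell with array weights or in the H3.3 libraries only, 3 fell without H3.1 K36M, 2 fell without H3.3 K36A, 1 fell and 1 rose without the filter, and 0 fell without H3.3 K36M or without H3.3 K36I. The PI3K regulatory subunit gene Pik3r1 (-0.84, SE 0.25, adjusted p = 0.0644) and Foxo1 (-0.61, SE 0.21, adjusted p = 0.0986), a transcription factor held back by PI3K signalling, did not pass. Tie1, the orphan partner of TIE2, was below the filter, with at most 5.85 normalised reads in any library. Angpt4, the third ligand, was below the filter too, with 64.9, 159 and 15.3 normalised reads in H3.3 K36M, H3.1 K36M and H3.3 K36I, against 3.83 to 8.36 in the other lines.

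In the VEGF axis, Vegfa rose and 0 of 9 genes tested fell, against 6.45% and 6.82% of all genes tested. With histone as a covariate, and without H3.1 K36M, 2 rose and 1 fell, with array weights 3 rose and 1 fell, in the H3.3 libraries only 2 rose and 2 fell, and without H3.1 K36R or without the filter 2 rose and 0 fell. Vegfa, the main endothelial growth factor, had 6095, 5320.3 and 6532 normalised reads in H3.3 K36M, H3.1 K36M and H3.3 K36I, against 3614 to 4384 in the other lines (0.57, SE 0.09, adjusted p = 0.00507). Nrp1 (-1.17, SE 0.38, adjusted p = 0.0776), a VEGF co-receptor, and the lymphatic growth factor Vegfc (0.94, SE 0.33, adjusted p = 0.0981) did not pass. Of 4 angiopoietin-like genes tested, Angptl4, a lipoprotein lipase inhibitor that does not bind TIE2, rose to 2749 ± 1421, against 286 ± 206 normalised reads (2.90, SE 0.45, adjusted p = 0.00444). Angptl6 (0.56, SE 0.38, adjusted p = 0.378) did not pass. Angptl1, below the filter, had 3.61 ± 3.14 normalised reads in the K36M and K36I lines, against 54.2 ± 19.4 in the others (SD, n = 3 and 5), with no overlap. Without the filter, 1 gene of this list rose and 1 fell.

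Of 15 feedback genes and targets of ERK signalling, which acts on ETS1 and ETS2, 4 rose and 0 fell, with a median difference of 0.25, where 6.45% of all genes tested rose and 6.82% fell. Only 2 rose without H3.3 WT, H3.3 K36I, H3.3 K36L, H3.3 K36M or H3.3 K36R in turn, and with histone as a covariate 6 rose and 1 fell. Dusp4, a phosphatase of ERK, rose to 10123 ± 841 normalised reads, against 1602 ± 883 (2.70, SE 0.35, adjusted p = 0.00200), and Fosl1, an AP-1 subunit, rose by 1.21 (SE 0.18, adjusted p = 0.00431). The phosphatase gene Dusp5 (0.63, SE 0.16, adjusted p = 0.0308) and Spred2 (0.36, SE 0.09, adjusted p = 0.0362), an inhibitor of the pathway, rose too, but kept their call in only 2 and 1 of the 8 fits that leave out a library. Spred1 (-0.26, SE 0.08, adjusted p = 0.0697) and Spry2 (-0.04), both inhibitors of the pathway, and Egr1 (0.04), an early target, did not pass.

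Of 12 known partners of ETS factors tested, Fos fell by 1.34 (SE 0.28, adjusted p = 0.0161) and the coactivator gene Crebbp by 0.27 (SE 0.07, adjusted p = 0.0299), and 0 rose. Over all genes tested, 6.82% fell and 6.45% rose. Fos lost its call without H3.3 K36I, and Crebbp in 6 of 8 such fits and with library medians set equal. Of 7 protease and inhibitor genes known as ETS targets, Mmp2, a gelatinase, fell by 0.49 (SE 0.11, adjusted p = 0.0228), a call lost without H3.3 K36M or without H3.3 WT. In this list 0 rose, beside the same shares over all genes tested. Plaur, the urokinase receptor (0.61, SE 0.20, adjusted p = 0.0877), did not pass.

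Over all these lists and the cell type markers below, 11 of 107 genes tested rose and 7 fell, 16.8% against 13.3% of all genes tested. Of the same 107, 9 passed the K36M against K36R comparison (limma with histone as a term), against 4.50% of all genes tested. Dusp4 and Ehf were among the 9 (adjusted p = 0.0416 and 0.0342).

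Of 20 endothelial markers, 14 were below the filter and 6 above it. Pecam1 and Cdh5 averaged 7.75 and 19.4 normalised reads in the K36M and K36I lines and 15.5 and 34.6 in the others. Of the 6 tested, 0 passed in limma, with 2 at an unadjusted p under 0.05, Eng (-0.41, SE 0.13, adjusted p = 0.0794) and Egfl7 (0.75, SE 0.32, adjusted p = 0.167). An unadjusted p under 0.05 was reached by 4016 of all 14215 genes tested. At an adjusted p under 0.05, 6.45% of all genes tested rose and 6.82% fell. The count of endothelial markers that passed depended on the fit: 1 rose and 1 fell with array weights or in the H3.3 libraries only. Without H3.1 K36M or without the filter 1 rose, and without H3.1 K36R 1 fell. Vwf averaged 205 and 164 normalised reads, Mmrn2 169 and 132, Cd34 75.7 and 58.9, Eng 671 and 938 and Egfl7 206 and 75.2, in the K36M and K36I lines and in the others. Most of the summed level was Flt1, a VEGF receptor, at 2469 ± 215 and 2451 ± 551 normalised reads. The sum over the list ranged from 3593 to 4146 in the K36M and K36I lines and from 2771 to 4831 in the others.

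Of 17 blood cell markers, 4 passed the filter. Cd53, a leukocyte tetraspanin (4.70, SE 0.39, adjusted p = 2.98e-04), and Lcp1, an actin-bundling protein (3.65, SE 0.55, adjusted p = 0.00400), rose, while Ptprc, the defining marker, averaged 5.74 and 1.54 normalised reads. Over all genes tested, 6.45% rose. The summed level was 5059 to 14741 in the K36M and K36I lines and 315 to 845 in the others. Most of the sum in the K36M and K36I lines was Cd53 and Lcp1. In H3.1 K36M, the highest of these lines, Cd53 had 9176 and Lcp1 5266 normalised reads. The sum was higher where Fli1 and Erg were lower, and its part in their difference was not tested.

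Of 7 mural cell markers tested, 0 passed in limma, where 6.45% of all genes tested rose and 6.82% fell. At an unadjusted p under 0.05 there was 1 mural marker, beside 4016 of all 14215 genes tested. With array weights, in the H3.3 libraries only or without H3.1 K36M, 1 fell, and without the filter 1 rose. Mcam (0.48, SE 0.23, adjusted p = 0.217) and Cspg4 (-0.42, SE 0.17, adjusted p = 0.146) had the largest differences, and the defining markers Rgs5 (44.3 and 5.84 normalised reads) and Kcnj8 (4.81 and 0) were below the filter. The sum over the mural list was 51020 to 179131 in the K36M and K36I lines and 61830 to 127364 in the others. Of 11 mesenchymal genes tested, the transcription factor genes Twist2 (1.20, SE 0.16, adjusted p = 0.00233) and Twist1 (0.47, SE 0.10, adjusted p = 0.0189) rose, and fibronectin, Fn1, fell (-1.01, SE 0.21, adjusted p = 0.0167). Over all genes tested, 6.45% rose and 6.82% fell. The calls of Fn1 and Twist1 were lost without H3.3 K36M, and also without H3.3 K36I for Fn1 and H3.3 WT for Twist1. The mesenchymal sum was 590302 to 824291 in the K36M and K36I lines and 879279 to 1156080 in the others, and its part in the differences of Tek, Erg and Fli1 was not tested.

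The genes most like each member were found by the Pearson correlation over the 8 libraries, leaving out predicted genes. For Tek these were Cldn19 (0.991), Erf (0.983) and Cask (0.983). Cldn19, a claudin gene, had 0, 2.63 and 3.40 normalised reads in H3.3 K36M, H3.1 K36M and H3.3 K36I, against 123 to 327 in the other lines. For Fli1 they were Klf13 (0.994), Gas7 (0.991) and Dip2b (0.990), and for Erg Ttc30b (0.990), Zfp637 (0.983) and Hoxa3 (0.982). For Angpt2 they were Tnfrsf26 (0.978), Prune2 (0.969) and Fyco1 (0.959). Angpt1 had Vdac1 (0.984), Rpp38 (0.961) and Ppid (0.958), whose levels vary far less: Vdac1 had 12829 normalised reads in H3.1 K36R and 16313 in H3.3 K36I. Ets1 had Optn (0.983), Lmbr1 (0.969) and Wbp1 (0.967), and Ets2 had Zfp934 (0.972), Hist2h2be (0.970) and Hp (0.969), the last, haptoglobin, at 288 and 446 normalised reads in H3.1 K36M and H3.1 K36R and at most 43.9 in the H3.3 lines.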

How the data were processed

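RNA was measured in 8 libraries, 1 per transgene. Trimmomatic 0.32, STAR 2.3.0e, featureCounts 1.4.4 and DESeq2 are named, with the build mm10, in the submitters' processing notes. For step order, annotation and strand setting no statement was found in the labels. The deposited table holds log2 values that follow a variance-stabilising transformation, with a size factor per library and no length correction. Inverting its parametric form gave whole reads for 100% of values (within 0.001 reads), and from these the depths.

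Genes with a mean at least 1 above the lowest value (31.0 normalised reads) were tested, 14215 of 31276, with limma 3.58.1 in R 4.3.3 (intensity trend, two-sided, Benjamini-Hochberg adjustment). K36M against K36R used 4 libraries with histone as a term. On simulated data planted log2 changes of 1 were recovered at 69% and those of 2 at 87% in the class comparison, with 9 of 14015 unchanged genes called. The changes were planted only in genes with means well above the filter, so recovery in the lowest genes was not measured. Coordinates, merged exon lengths and neighbours come from GENCODE M21 (GRCm38).

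The members and the 11 lists (158 genes, all found) were chosen with earlier results of these data known. Named were the members, up to 4 called genes of each list or its 2 largest differences, and the 3 genes most like each member. Spry2, Egr1, Spred1, Elk1, Angpt4, Angptl1, Tie1, Spi1, other markers of cell types and the genes near the members were named outside this rule, after their values were seen. Alternatives covered the filter, scale, centring, covariate, weights and libraries. Some genes that this rule names are not reported here, but they stay in the counts.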

Additional observations from a re-analysis of the deposited data

Results flagged for a closer look

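Ets2 in H3.1 K36R stood apart from the other lines without K36M or K36I. The gap to the next of these 5 libraries was 0.827 of their whole range, a gap picked out by Dixon's ratio, which flags about 5% of groups by chance. All 7 genes were examined, with their values known when they were chosen, so this describes 1 library and is no test.

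For Ets1 and Ets2 the difference of K36M from K36R had opposite signs in the histones. Ets2 differed by 0.35 in H3.3 and by -0.55 in H3.1. Ets1 differed by -0.50 in H3.3 and by 0.0086 in H3.1, which is close to no difference. With 1 library behind each value, the difference between the histones was not tested.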

How the results depend on the processing

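The direction of the class difference held for Tek, Erg, Fli1, Angpt2 and Ets1 under every alternative run. As log2(normalised reads + 1), Tek was at -2.78, Fli1 at -3.05, Angpt2 at 0.77 and Erg at -7.24, a scale that compresses low genes less. Without each library in turn the ranges were -2.53 to -2.26 for Tek, -2.66 to -2.23 for Erg, -2.81 to -2.42 for Fli1, 0.38 to 0.70 for Angpt2, -0.90 to -0.37 for Ets1, -1.82 to 0.03 for Angpt1 and -0.04 to 0.36 for Ets2. For Angpt1 the value was -1.82 without H3.3 K36I and 0.03 without H3.1 K36M. The class comparison called 1887 genes, 1021 to 2084 without 1 library (1021 without H3.3 K36M, 1211 without H3.3 WT, 1245 without H3.3 K36I), 2959 with histone as a covariate and 4074 with array weights. Of the list genes 18 were called, 11 to 25 without 1 library (11 without H3.3 K36M), 32 with the covariate, 33 with weights and 31 in the H3.3 libraries only, and 10 of the 18 kept their call in all 8 fits. K36M against K36R called 639 genes, 1256 without the filter and 222 without the histone term. It could not be fitted with 1 library left out, as no residual degree of freedom remains. As log2(normalised reads + 1), genes differing from H3.3 WT by at least 1 numbered 1762 in H3.3 K36I, 2202 in H3.1 K36M, 768 in H3.3 K36A, 515 in H3.3 K36L, 717 in H3.3 K36R and 1064 in H3.1 K36R, against 1084, 1465, 295, 146, 250 and 473 on the deposited scale. The causes were not tested. No paired analysis was possible by replicate number because each transgene has 1 library. K36M against K36R is matched by histone instead, through the histone term. Depth limits Erg in the K36M and K36I lines, where 0 to 4 reads were counted.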
